A study of Mus musculus with 20 samples.

Results

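The genes described here build cholesterol from acetyl-CoA, sense its level, and move or store it in the cell. A list of 29 such mouse genes was taken by symbol, and each gene was read from 1 probe set, the one with the highest mean among those that map to that gene only. Of the 29 genes, 27 had a probe set of their own, against 18193 such genes on the whole array. Acat2, a thiolase that joins acetyl-CoA units, and Soat2, which esterifies cholesterol for storage, were not used here. All 27 passed a filter that kept genes with a mean of at least 6.505, the median over probe sets, and 11728 genes of the array passed it.

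The samples were livers of 20 male C57BL/6J mice, an inbred strain, with 1 array per mouse. All mice were bought at 3 weeks of age, spent a week on a diet with 10 kcal% fat, and are given as 8 weeks old in the labels. The HFD group (n = 10), ate 45 kcal% fat after that for 4 weeks, and the MSXH group (n = 10) ate it with maple syrup extract mixed in at 0.05%, abbreviated MSXH in the labels. Livers were collected on day 30, after 16 h without food, so every value is that of a fasted animal on 45 kcal% fat. The low-fat and 0.02% extract groups that the protocol names were not analysed here.

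Cholesterol is made in a long chain of enzymes: the mevalonate steps give isoprene units, the squalene steps join and fold them into lanosterol, and the last steps trim lanosterol to cholesterol. The genes are under the control of the transcription factor SREBP-2, the product of Srebf2, which sits in the endoplasmic reticulum with its escort Scap. When sterols are plentiful the Insig proteins hold that pair back, and when sterols are scarce SREBP-2 is carried to the Golgi, cut, and sent to the nucleus, where it turns on the enzymes and also Insig1. The liver is a main site of this synthesis, and its activity there falls with fasting and with dietary cholesterol.

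The upstream sequences of 5 members are shown because these genes carry the contrasts below. Hmgcs1, Idi1 and Nsdhl are enzymes whose levels moved together across mice, Hmgcs1 more loosely than Idi1 and Nsdhl. Insig1 and Insig2 encode related proteins whose levels moved in opposite directions. Each sequence runs from 250 bases before to 50 bases after the transcript start (RefSeq, build GRCm38.p6), written 5′ to 3′ on the gene's strand. They lie at chr13:119690101-119690400 on the plus strand (Hmgcs1), chr13:8885356-8885655 on the plus strand (Idi1), chrX:72918271-72918570 on the plus strand (Nsdhl), chr5:28071162-28071461 on the plus strand (Insig1) and chr1:121332540-121332839 on the minus strand (Insig2, the most upstream of 3 starts). Capitals mark CCAAT boxes, which read ATTGG where the match is on the other strand, the sterol-element pattern TCACNCCAC in Hmgcs1, and the E-box CACGTG in Insig1.
Hmgcs1: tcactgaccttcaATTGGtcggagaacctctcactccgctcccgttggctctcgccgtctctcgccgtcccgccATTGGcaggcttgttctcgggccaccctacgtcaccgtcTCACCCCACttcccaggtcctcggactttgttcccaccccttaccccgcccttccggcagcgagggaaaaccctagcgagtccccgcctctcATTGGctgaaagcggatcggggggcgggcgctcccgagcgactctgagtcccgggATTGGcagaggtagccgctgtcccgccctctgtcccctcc
Idi1: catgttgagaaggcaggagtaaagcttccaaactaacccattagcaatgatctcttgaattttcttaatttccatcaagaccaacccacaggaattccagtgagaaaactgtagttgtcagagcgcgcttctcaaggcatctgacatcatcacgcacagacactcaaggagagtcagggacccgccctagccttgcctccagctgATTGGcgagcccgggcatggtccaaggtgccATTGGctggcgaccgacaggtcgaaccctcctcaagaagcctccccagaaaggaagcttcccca
Nsdhl: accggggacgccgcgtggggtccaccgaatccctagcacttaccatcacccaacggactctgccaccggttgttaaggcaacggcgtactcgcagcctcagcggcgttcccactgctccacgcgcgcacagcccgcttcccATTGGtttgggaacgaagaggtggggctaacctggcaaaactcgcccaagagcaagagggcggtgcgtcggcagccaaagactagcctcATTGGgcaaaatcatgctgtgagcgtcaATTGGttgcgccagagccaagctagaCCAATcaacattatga
Insig1: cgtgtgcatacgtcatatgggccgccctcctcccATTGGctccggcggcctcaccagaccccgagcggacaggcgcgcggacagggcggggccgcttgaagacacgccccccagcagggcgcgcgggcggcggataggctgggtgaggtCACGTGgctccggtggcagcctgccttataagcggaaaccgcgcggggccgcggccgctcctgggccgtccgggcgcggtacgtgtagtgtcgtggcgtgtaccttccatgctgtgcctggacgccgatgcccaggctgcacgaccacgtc
Insig2: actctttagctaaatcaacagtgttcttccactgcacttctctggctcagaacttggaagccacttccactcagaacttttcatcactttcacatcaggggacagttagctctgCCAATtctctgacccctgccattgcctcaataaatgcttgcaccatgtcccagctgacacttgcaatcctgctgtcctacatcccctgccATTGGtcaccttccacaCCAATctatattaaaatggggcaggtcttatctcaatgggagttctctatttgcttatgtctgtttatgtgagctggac

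CCAAT, the recognition pattern of NF-Y, a partner of SREBP-2 at its targets, was found on either strand in 21 of the 23 members that the promoter table holds. It was found in 37.4% of all 32851 promoters of the table and, taking genes with any such promoter, in 41.1% of 27025 genes. Hmgcs1 held 4 matches, Nsdhl 4, Idi1 2, Insig1 1 and the shown Insig2 promoter 3. The GC box GGGCGG, a pattern bound by Sp1, was found in 21 of the 23 members and in 35.7% of all promoters. CACGTG was found in 5 of the 23 members and in 7.15% of promoters. TCACNCCAC was found in Hmgcs1 alone among these 23, at positions -137 to -129 from the start, and in 1.24% of promoters. Fdps, Fdft1, Sqle, Stard4, Npc1 and Soat2 were not in the promoter table and were not searched. The matches in capitals do not overlap each other. A match describes these letters in this window and does not show binding.

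The values are deposited log2 levels whose differences between mice are strongly compressed. The median SD of a probe set over the 20 mice was 9.33e-06, so a difference cannot be read as a fold change, and how the values were normalised is not given in the sources used here. Correlations by rank and differences in SD units are therefore reported. Hedges' g below is MSXH minus HFD in units of the SD within diets, with a correction for small groups and a 95% interval, and levels of different genes are not set against each other. Signal over background is unknown, and precision is limited by how many arrays there are.

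The tissue label was checked against marker genes. All 8 hepatocyte markers, such as Alb and Ttr, were measured past the filter, with means between 11.4 and 14.7. Of markers of other cells, 6 of 6 endothelial, 6 of 6 Kupffer, 5 of 6 stellate, 2 of 5 bile duct, 2 of 5 lymphocyte, 1 of 4 fat and 1 of 4 pancreas genes passed it. No list differed between diets in any gene past the threshold. The mean was higher in MSXH in 6 of 6 endothelial markers (median g 0.570) and in 0 of 6 Kupffer markers (-0.170). It was higher in 3 of 5 stellate markers (0.0430) and 3 of 8 hepatocyte markers (-0.0524). The part of cell types in the difference of the members between diets was not tested. In whole liver, fewer cells of a type and less RNA per cell cannot be told apart.

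The levels of the cholesterol enzymes varied together from mouse to mouse, while neither diet separated from the other in any of them. Idi1, Fdps, Fdft1, Sqle, Cyp51, Msmo1 and Nsdhl were high in the same livers and low in the same livers, and Insig1 and the sterol carrier Stard4 went with them. Insig2 went against them in every setting that gave it a value, with a median correlation below 0. Npc1, Mylip and Ggps1 were also below 0 on the deposited values, but with equal array medians they stood at 0.0887, 0.102 and 0.359. That scaling gives all genes of an array the same offset. The array medians span 0.000176, more than the SD of Npc1 (8.13e-05), Mylip (9.47e-05) or Ggps1 (3.53e-06). These values therefore do not show that the genes follow. Between the diets, 0 of 27 genes passed the test. In 22 of 27 the MSXH mean was the higher one, and over all 27 the median difference was 0.4657 SD.

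Over the 27 members there are 351 pairs, each tested by Spearman's rho over the 20 mice with 100000 two-sided permutations. With p-values adjusted over all 316278 pairs of a member with any gene tested, 49 member pairs passed the threshold of 0.05, 48 of them positive and 1 negative. That is 14.0% of member pairs, against 0.191% of the 315927 pairs of a member with another gene. Adjusted over the 351 pairs, the family of relations computed among the members, 138 passed, 132 positive and 6 negative, which is 39.3% of them. The smallest of these had an absolute rho of 0.522, a size that 6.52% of pairs with other genes reached. The median rho was 0.395 among members and -0.0120 between members and other genes. This held within each diet, with a median of 0.467 in the 10 HFD mice and 0.297 in the 10 MSXH mice, and with diet means removed it was 0.415. Of the 138 pairs, 137 had the same sign in both diets. Whether the medians of the diets differ was not tested.

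**Figure D1:**
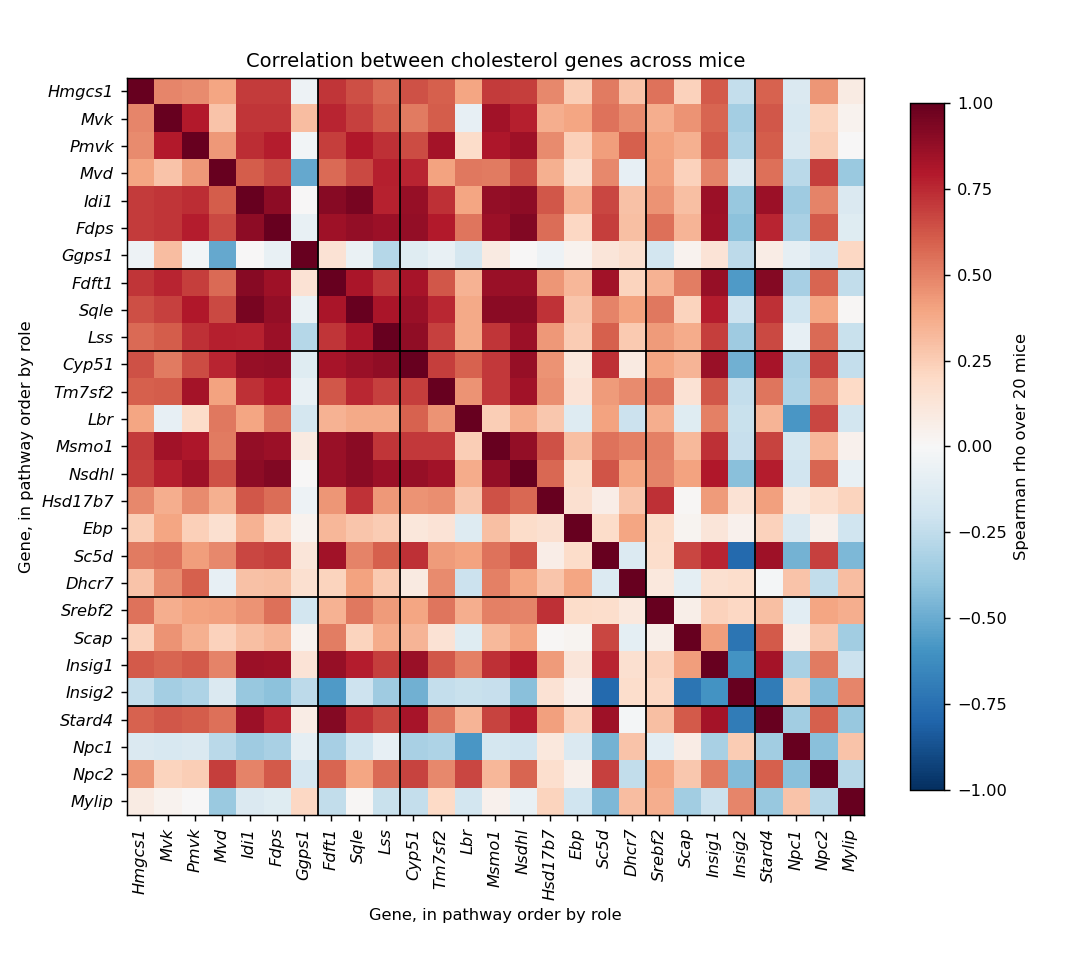
Spearman's rho over 20 mice for each pair of 27 cholesterol genes, ordered along the pathway; black lines separate mevalonate steps, squalene to lanosterol, lanosterol to cholesterol, sterol sensing, and transport and uptake. Red is positive and blue negative. The enzymes form a broad red block with a median rho of 0.638 over 136 pairs of 17 enzymes. These 17 leave out Lbr and Ggps1, whose median rho with the other members was 0.356 and -0.0383. The rows of Insig2, Npc1, Mylip and Ggps1 are mostly pale or blue.

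The closest pair was Idi1 with Sqle. Their rho was 0.947 (r = 0.949, permutation p = 1e-05 for both, the smallest that 100000 permutations can give; whole-table adjusted p = 0.0321). It was 0.867 within HFD and 0.988 within MSXH, and r was 0.934 without the 2 mice farthest from the Idi1 median. Fdps with Nsdhl followed at rho = 0.928 (r = 0.930, permutation p = 1e-05 for both, adjusted p 0.0321), and Fdft1 with Stard4 at 0.917 (r = 0.894, permutation p = 1e-05 for both, adjusted p 0.0321). Without the 2 farthest mice their r was 0.947 and 0.876. Idi1 with Sqle and Fdps with Nsdhl join enzymes from different stretches of the pathway: Idi1 acts before farnesyl diphosphate and Sqle after squalene. Stard4 is a sterol carrier and no enzyme of the route.

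The median rho was lower between the most distant steps of the pathway. Enzymes of adjacent steps had a median rho of 0.698 over 16 pairs, those 2 to 4 steps apart 0.695 over 42, those 5 to 9 steps apart 0.644 over 50, and those 10 to 16 steps apart 0.474 over 28. Single pairs ran from -0.138 to 0.895 at adjacent steps and from -0.0797 to 0.850 at 10 to 16 steps. Pairs that far apart join only the first enzymes to the last ones. Among the last were Ebp and Dhcr7, whose median rho with all other members was 0.183 and 0.270. Their part in the lower median was not tested. The pairs share genes and mice, so these medians are a description.

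The same livers stood at the ends for most enzymes. Each of 17 enzymes, without Lbr and Ggps1, was ranked from 1 (lowest) to 20 (highest) over the mice. The median rank was 2 in HFD replicate 9, 3 in HFD replicate 1 and 4 in both HFD replicate 3 and MSXH replicate 10. It was 19 in MSXH replicate 3, 18 in HFD replicate 7 and 17 in MSXH replicate 8. HFD mice spanned 2 to 18 with a median of 7 and MSXH mice 4 to 19 with a median of 11.5. Each diet had livers near both ends, and 5 of the 7 lowest mice were HFD. MSXH replicate 3 was among the highest 5 mice for 14 of the 17 enzymes, and HFD replicate 1 among the lowest 5 for 14. Without HFD replicate 9, 115 pairs passed in place of 138 when adjusted over the member pairs.

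In the mevalonate steps, Hmgcs1 makes HMG-CoA in the cytosol, and its level ran from 9.9910 to 10.0036 in HFD mice (median 9.9983) and from 9.9962 to 10.0075 in MSXH mice (median 10.0002). The diets overlapped broadly, and 1 MSXH liver, replicate 3, stood above all others. Its g was 0.659 (95% interval -0.241 to 1.56), and its median rho with the other members was 0.503. It was part of 0 pairs that passed over the whole table, and of 12 when adjusted over the member pairs. Its other probe sets past the filter gave rho of 0.959, 0.982 and 0.944 with the one used.

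Mvk and Pmvk add phosphates to mevalonate in turn. Mvk lay between 7.480978 and 7.481072 in HFD mice (median 7.481009) and between 7.480970 and 7.481052 in MSXH mice (median 7.481025). Pmvk lay between 7.516624 and 7.516959 in HFD mice (median 7.516754) and between 7.516720 and 7.516927 in MSXH mice (median 7.516854). In both genes the HFD range enclosed nearly the whole MSXH range, and g was 0.0634 (-0.813 to 0.940) for Mvk and 0.610 (-0.286 to 1.51) for Pmvk. The kinases followed the other enzymes, with median rho of 0.501 and 0.535. Pmvk was part of 6 pairs that passed over the whole table and Mvk of 3.

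Mvd, the decarboxylase that yields isopentenyl diphosphate, ranged from 6.661592 to 6.661824 in HFD (median 6.661699) and from 6.661616 to 6.661891 in MSXH (median 6.661734). It followed less closely, with a median rho of 0.457 and 1 pair that passed over the whole table, and g was 0.625 (-0.272 to 1.52).

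Idi1, which isomerises isopentenyl diphosphate, had the widest spread of any member, with an SD of 0.0159, past that of 99.6% of genes tested. It ranged from 7.7418 to 7.7948 in HFD (median 7.7736) and from 7.7515 to 7.7962 in MSXH (median 7.7798). Livers of both diets filled the same interval, and g was 0.294 (-0.587 to 1.18). Fdps, which joins the units to farnesyl diphosphate, ranged from 7.7438 to 7.7589 in HFD (median 7.7510) and from 7.7463 to 7.7591 in MSXH (median 7.7551). The ranges nearly coincided, the HFD median was exceeded in 9 of 10 MSXH mice, and g was 0.593 (-0.303 to 1.49). Fdps was the closest follower of all members, with a median rho of 0.695, and Idi1 came next at 0.683.

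Ggps1 turns farnesyl diphosphate to geranylgeranyl diphosphate for protein anchoring, off the sterol route. Its median rho was -0.0383, or 0.237 with its probe set of largest SD, and it had 0 pairs that passed. Its SD over mice was 3.53e-06, among the lowest 8.19% of genes tested, and its other probe sets did not track the one used, with rho of -0.405, 0.0962 and -0.129. For this gene the deposited values therefore did not repeat from one probe set to another.

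**Figure D2:**
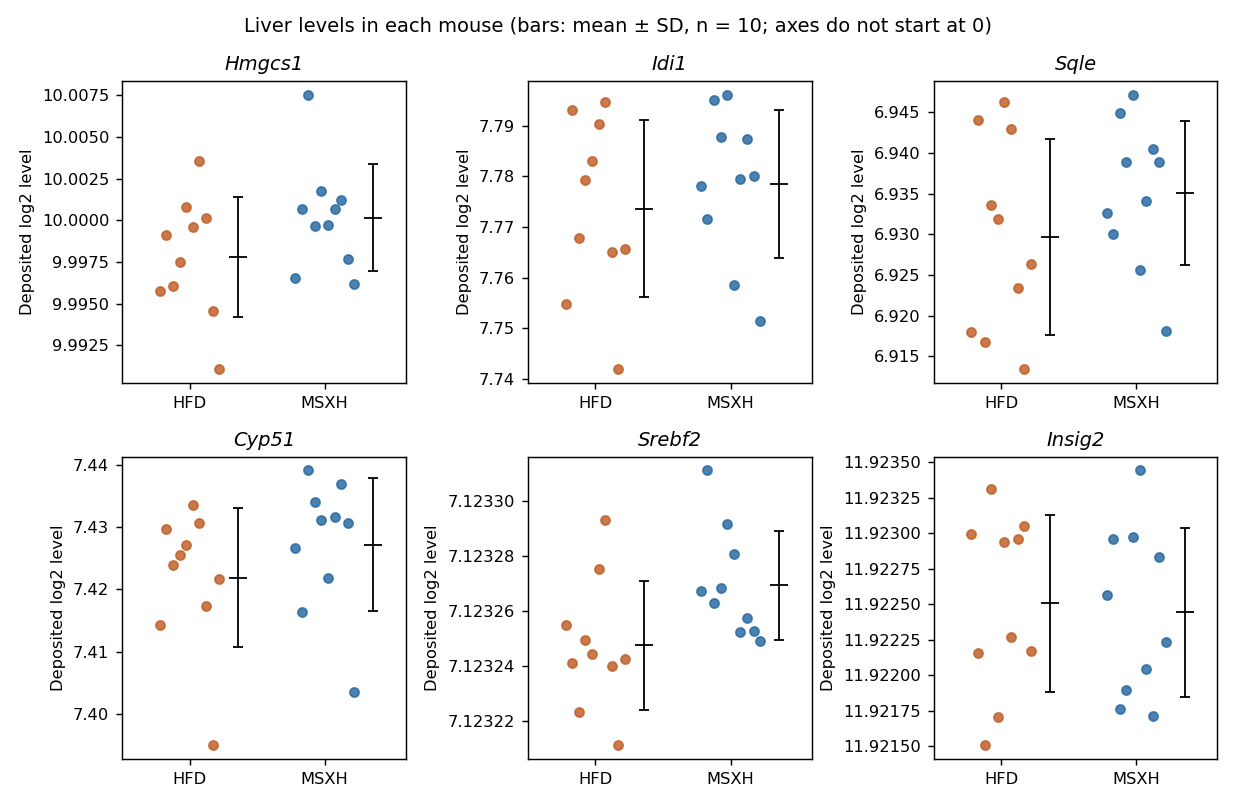
Deposited log2 level of 6 genes in each of 10 HFD mice (orange) and 10 MSXH mice (blue), with mean and SD beside the points; the axes do not start at 0. Points of the diets overlap in every panel, and the HFD median is exceeded in 10 of 10 MSXH mice for Srebf2, against 4 of 10 for Insig2.

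In the squalene steps, Fdft1 joins farnesyl units to squalene and ranged from 8.9449 to 8.9489 in HFD (median 8.9471) and from 8.9452 to 8.9511 in MSXH (median 8.9480). Sqle, the squalene epoxidase and a slow step of the route, ranged from 6.9134 to 6.9462 in HFD (median 6.9291) and from 6.9181 to 6.9472 in MSXH (median 6.9365). For both enzymes the lowest liver was HFD replicate 9, and the diets overlapped over most of their range. Lss, which folds the product to lanosterol, ranged from 7.659659 to 7.659942 in HFD (median 7.659753) and from 7.659675 to 7.659914 in MSXH (median 7.659832). Here the MSXH range lay inside that of HFD. The values of g were close to each other, 0.487 (-0.402 to 1.38) for Fdft1, 0.491 (-0.399 to 1.38) for Sqle and 0.443 (-0.444 to 1.33) for Lss. The 3 genes moved closely together, with rho between 0.716 and 0.814, and their pairs with mevalonate enzymes had a median of 0.717 over 21 pairs.

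In the steps from lanosterol to cholesterol, Cyp51 removes the first methyl group and ranged from 7.3949 to 7.4336 in HFD (median 7.4248) and from 7.4035 to 7.4392 in MSXH (median 7.4310). HFD replicate 9 stood below the others of its diet, and the diets overlapped (g 0.4657, -0.423 to 1.35). Tm7sf2, a sterol reductase, ranged from 10.414112 to 10.414499 in HFD (median 10.414260) and from 10.414293 to 10.414525 in MSXH (median 10.414352). All 10 MSXH livers lay above the HFD median, although the ranges overlapped. Its g of 1.05 (0.116 to 1.99) was the highest of the members, with an unadjusted p of 0.0221 that did not pass adjustment (limma, adjusted p = 0.9998). Quantile normalisation brought its g to 0.

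Lbr shares the reductase activity of Tm7sf2 and also ties chromatin to the nuclear envelope. It followed more loosely than Tm7sf2, with median rho of 0.356 and 0.535, and its g was 0.761 (-0.146 to 1.67). It ranged from 7.830601 to 7.830914 in HFD (median 7.830749) and from 7.830679 to 7.830957 in MSXH (median 7.830873), with broad overlap.

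Msmo1, Nsdhl and Hsd17b7 take off the remaining methyl groups. Msmo1 ranged from 8.4261 to 8.4688 in HFD (median 8.4428) and from 8.4332 to 8.4660 in MSXH (median 8.4517). Nsdhl ranged from 7.7630 to 7.7683 in HFD (median 7.7649) and from 7.7639 to 7.7695 in MSXH (median 7.7675). Hsd17b7 ranged from 9.3120 to 9.3131 in HFD (median 9.3127) and from 9.3126 to 9.3132 in MSXH (median 9.3128). In each gene the diets overlapped, and the HFD median was exceeded in 7 or 8 of 10 MSXH mice. Nsdhl, with g of 0.823 (-0.0898 to 1.74), was part of 12 pairs that passed over the whole table, the most of any member, and Msmo1 of 7. Hsd17b7 followed less, with a median rho of 0.416, and had a higher rho with Srebf2 (0.731) than with Insig1 (0.424).

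Ebp, the sterol isomerase, had the lowest g of the members. It ranged from 11.669771 to 11.669784 in HFD (median 11.669778) and from 11.669769 to 11.669777 in MSXH (median 11.669774), and the HFD median was exceeded in 0 of 10 MSXH mice. Its g was -1.04 (-1.97 to -0.106; limma, unadjusted p = 0.0340, adjusted p = 0.9998), but it turned to 0.246 once every array was given an equal median, a scaling that moved most genes upward in MSXH. Its SD, 3.86e-06, was among the lowest 9.81% of genes tested. Its median rho with the other members was 0.183 over all mice, 0.600 within HFD and 0.0727 within MSXH, and the difference between diets was not tested.

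Sc5d, a desaturase, and Dhcr7, a reductase, complete the chain. Sc5d ranged from 10.6668 to 10.6692 in HFD (median 10.6680) and from 10.6672 to 10.6693 in MSXH (median 10.6681). Dhcr7 ranged from 7.202868 to 7.203209 in HFD (median 7.203098) and from 7.202923 to 7.203146 in MSXH (median 7.203070). The diets overlapped almost fully in both, with g of 0.261 (-0.619 to 1.14) and -0.00346 (-0.880 to 0.873). The median rho was 0.507 for Sc5d and 0.270 for Dhcr7, which was in 0 pairs that passed over the whole table. With the probe set of largest SD the order turned, at 0.120 for Sc5d and 0.301 for Dhcr7.

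Among the sterol sensors, Insig1 behaved like an enzyme of the route. It ranged from 8.9580 to 8.9672 in HFD (median 8.9634) and from 8.9598 to 8.9677 in MSXH (median 8.9645), with full overlap and g of 0.233 (-0.646 to 1.11). Over the same 17 enzymes, without Lbr and Ggps1, its median rho was 0.695, and 13 of them had a rho above 0.5 with it. The highest were Fdft1 at 0.868, Cyp51 at 0.862 and Idi1 at 0.853, and the lowest Ebp at 0.122, Dhcr7 at 0.162 and Hsd17b7 at 0.424.

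Srebf2 itself tracked the enzymes less than Insig1 did. Its level ranged from 7.123211 to 7.123293 in HFD (median 7.123244) and from 7.123249 to 7.123311 in MSXH (median 7.123265). All 10 MSXH livers lay above the HFD median, with overlapping ranges, and g was 0.965 (0.0392 to 1.89; limma, unadjusted p = 0.0339, adjusted p = 0.9998). Quantile normalisation left a g of 0.240. The other Srebf2 probe set past the filter had a g of 0.465, and its rho with the one used was 0.568. The SD of Srebf2 over mice was 2.40e-05, against 0.00268 for Insig1. Over the 17 enzymes the median rho of the Srebf2 probe set used was 0.426, with 6 above 0.5. Of the 17, 15 had a higher rho with Insig1 than with Srebf2. The closest was Hsd17b7 at 0.731 (r = 0.777, permutation p of rho 0.00038, whole-table adjusted p = 0.0778), and r was 0.631 without the 2 farthest mice. Srebf2 and Insig1 had a rho of 0.229 (r = 0.211, permutation p = 0.330 and 0.371). The median rho of Srebf2 with the other members was 0.370 within HFD and 0.0727 within MSXH.

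**Figure D3:**
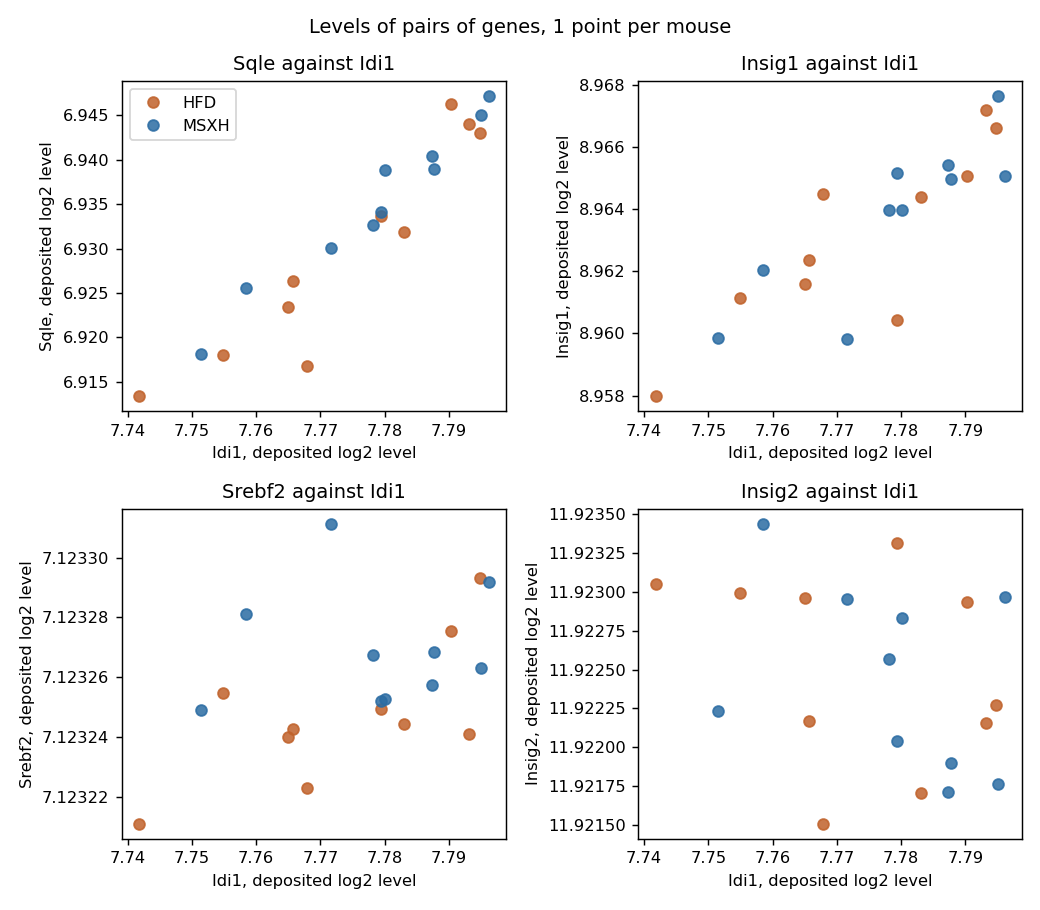
Deposited log2 levels of Sqle, Insig1, Srebf2 and Insig2 (y axes) against Idi1 (x axes), with 1 point per mouse, HFD in orange and MSXH in blue. The points lie close to a line for Sqle (rho 0.947) and Insig1 (0.853), scatter for Srebf2 (0.450), and slope downward loosely for Insig2.

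Insig2 went the other way from Insig1. Both proteins hold back the SREBP-2 and Scap pair, but Insig1 is a target of SREBP-2, while liver Insig2 transcripts are known to rise in fasting and to fall with insulin. Insig2 ranged from 11.9215 to 11.9233 in HFD (median 11.9226) and from 11.9217 to 11.9234 in MSXH (median 11.9224). The diets overlapped, with g of -0.101 (-0.978 to 0.776). Its median rho with the other members was -0.286, the lowest of all.

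The 3 lowest pairs of members all held Insig2. With Sc5d its rho was -0.776 (r = -0.753, permutation p = 1e-04 and 0.00012, whole-table adjusted p = 0.0485), and this was the 1 negative pair that passed over the whole table. It was -0.745 within HFD and -0.806 within MSXH, and r was -0.723 without the 2 farthest mice. Sc5d also passed with 2.38% of genes that are no members, the highest share of any member, and Insig2 with 0.385%. Over all members that share was 0.191%. For Insig2 with Scap rho was -0.728 (adjusted p 0.0778) and with Stard4 -0.698 (adjusted p 0.0862), neither past that threshold. With Insig1 it was -0.597 (r = -0.583, permutation p = 0.00646 and 0.00781, adjusted p 0.211), -0.721 within HFD and -0.648 within MSXH. The other probe sets of Insig2 gave rho of 0.892 and 0.907 with the one used, so its spread repeated within the array.

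Scap, the escort, ranged from 9.689974 to 9.690055 in HFD (median 9.690004) and from 9.689968 to 9.690062 in MSXH (median 9.690014), with full overlap and g of 0.148 (-0.730 to 1.03). Its median rho with the members was 0.252, and 0 of its pairs passed over the whole table.

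Of the transport and uptake genes, Stard4, which carries sterols between membranes, followed the enzymes with a median rho of 0.603 and 6 pairs that passed over the whole table. Its g was 0.281 (-0.600 to 1.16). Npc2 and Npc1 hand cholesterol out of the lysosome. Npc2 followed in part, with a median rho of 0.417, while Npc1 was at -0.184 (0.231 after quantile normalisation). For Npc2, the HFD median was exceeded in 9 of 10 MSXH mice and g was 0.819 (-0.0935 to 1.73), and for Npc1 g was -0.00995 (-0.886 to 0.867). Mylip, a ubiquitin ligase that lowers lipoprotein receptors at the cell surface, is a target of the sterol-activated LXR factors rather than of SREBP-2. Its median rho was -0.0955, with 0 pairs called by either adjustment, and its g was 0.589 (-0.306 to 1.48). In all of these genes the diets overlapped.

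Between the diets as a whole, the question the labels pose is whether the extract changes liver expression under high-fat feeding. With limma, 0 of 27 members passed an adjusted p of 0.05, as did 0% of the 11728 genes tested (smallest adjusted p = 0.9998). At an unadjusted p under 0.05 there were 3 members, Tm7sf2, Srebf2 and Ebp, against 3.62% of all genes, and a Wilcoxon rank-sum test called 0 genes and had 4 members under 0.05, against 3.4% of all genes. The mean was higher in MSXH in 22 of 27 members, against 49.4% of genes tested. After quantile normalisation it was higher in 20 of 25, against 49.4% of genes. Once every array was given an equal median it was higher in 26 of 27, but then also in 91.1% of all genes, so that count says nothing about the members. The median g was 0.4657, against -0.00692 over all genes. Since the members move together, these are not 27 separate observations.

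The excess of positive signs was spread over the route. It was 6 of 7 in the mevalonate steps (median g 0.593), 3 of 3 in the squalene steps (0.487), 7 of 9 from lanosterol onward (0.4657), 3 of 4 sterol sensors (0.191) and 3 of 4 transport genes (0.435). All 27 members overlapped between the diets. The share of all genes that overlapped was not counted, so this marks nothing particular to the members. With 10 mice per diet, the 95% interval of g was about as wide for every member as for Mvk, -0.813 to 0.940.

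**Figure D4:**
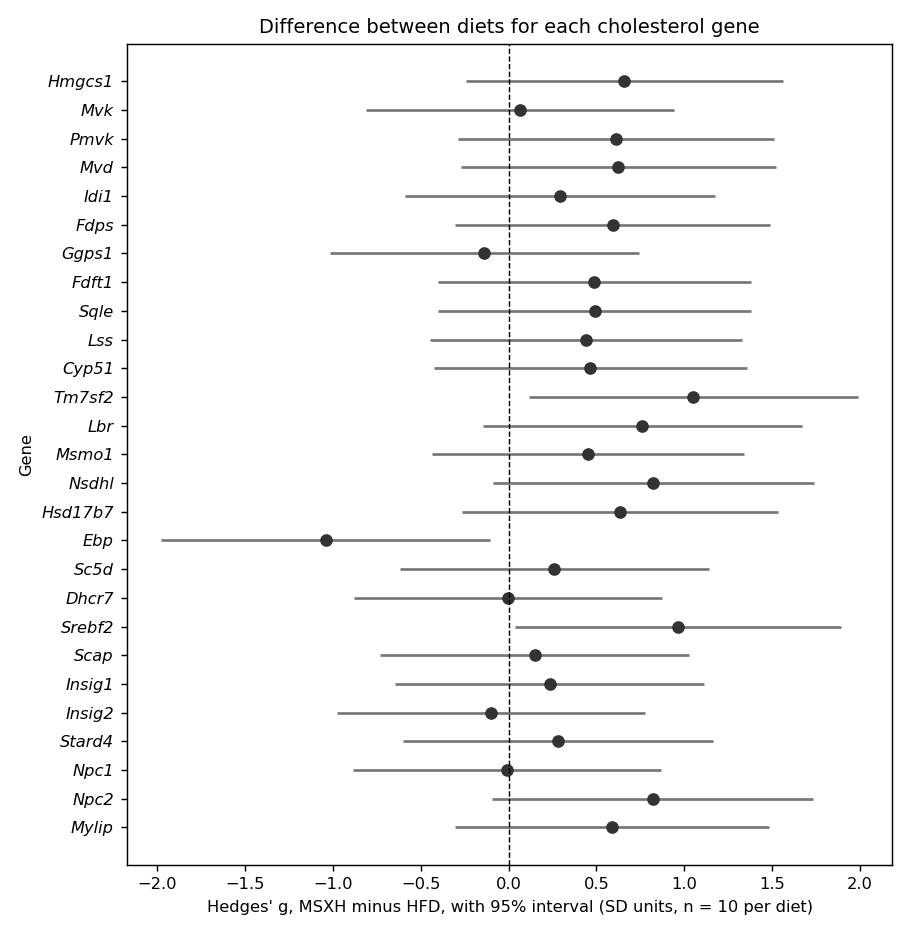
Hedges' g (MSXH minus HFD, in SD units) with its 95% interval for 27 cholesterol genes in pathway order, n = 10 mice per diet. In 24 genes the interval spans 0; Tm7sf2 and Srebf2 lie to the right of it and Ebp to the left, and none of the 3 passes adjustment.

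Genes of neighbouring functions were set beside the members by their mean rho with 7 enzymes (Hmgcs1, Idi1, Fdps, Sqle, Lss, Cyp51 and Nsdhl). Over 11701 genes that are no members this mean rho had a median of -0.0114 and a central 95% from -0.454 to 0.477. Genes of SREBP processing and sterol sensing did not follow as a list: the 13 tested had a median of -0.113, 5 of them above 0. Tmem97, a sterol-responsive membrane protein, was at 0.807 and Rdh11, a retinol dehydrogenase, at 0.507, while the coat protein Sec23a was at -0.443 and the ligase Rnf139 at -0.415. Rdh11 was also the 1 gene of these lists with an unadjusted diet p under 0.05 (limma, p = 0.0103, adjusted p = 0.9998), with its mean higher in MSXH.

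The 16 genes of fatty acid synthesis, which answer mainly to SREBP-1, had a median of 0.209, and 13 were above 0. Srebf1 was at 0.503 and the desaturase Fads1 at 0.409, while Scd1, another desaturase, was at -0.0436 and malic enzyme Me1 at -0.220. Of 11 efflux and bile acid genes 4 were above 0 (median -0.109), from Abcg1, a cholesterol exporter, at 0.499 and Abcg5 at 0.334 down to Cyp7a1, the first enzyme of the main bile acid route, at -0.315 and Cyp27a1 at -0.372. Clock genes scattered in both directions, 7 of 13 above 0 (median 0.0131), with Dbp at 0.458 and Nr1d1 also at 0.458 against Bmal1 (Arntl) at -0.480 and Cry1 at -0.539. Fasting and glucocorticoid genes had the lowest median of these lists, -0.153, with 2 of 11 above 0, from Cpt1a at 0.130 and Ppargc1a at 0.105 to G6pc at -0.278 and Igfbp1 at -0.314. In each of these 5 lists 0 genes passed between diets (limma).

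Cell type markers moved with the enzymes to different degrees. Hepatocyte markers had a median mean rho of -0.0132, with 4 of 8 above 0. All 5 stellate markers tested were above 0 (median 0.578), led by Reln at 0.701 and Ecm1 at 0.670, as were 5 of 6 Kupffer markers (0.305) and 5 of 6 endothelial markers (0.217). The mean level of the stellate list lay between 8.936 and 8.956 in HFD mice and between 8.936 and 8.963 in MSXH mice, that of the Kupffer list between 9.1198 and 9.1214 and between 9.1194 and 9.1212, and that of the endothelial list between 8.20873 and 8.20877 and between 8.20874 and 8.20879. Bile duct markers stood at -0.0952 (0 of 2 above 0), lymphocyte markers at 0.133 (1 of 2), the fat marker Cidec at -0.233 and the pancreas marker Cela1 at 0.410. Their part in the shared movement of the enzymes was not tested. Of measures of RNA quality, the gap between 3′ and 5′ actin controls had a mean rho of -0.215 with the 7 enzymes, and over the members its rho ran from -0.370 to 0.450, with 1 of 27 (Npc1) at an unadjusted permutation p under 0.05. The Gapdh gap had a mean rho of -0.0131, and the median deviation of the array 0.0881. Between diets the actin gap had a g of 0.491 and the Gapdh gap 0.348, near the members' median g of 0.4657. Their part in the difference between diets was not tested.

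Outside the list, the 10 genes with the highest mean rho to the 7 enzymes over 20 mice were Tmem97 (0.807), Asah1 (0.803), Wfdc1 (0.714), H2-Aa (0.711), Reln (0.701), Anxa1 (0.700), Ms4a4d (0.691), Steap4 (0.686), Rtn4 (0.686) and H2-Ab1 (0.684). Asah1 encodes a lysosomal ceramidase, and H2-Aa and H2-Ab1 the chains of an MHC class II molecule. Each of the 7, measured the same way against the rest of them, stood between 0.658 (Hmgcs1) and 0.857 (Nsdhl). Hmgcs1 was thus below all 10 of these outside genes. Members other than the 7 stood between -0.355 (Insig2) and 0.815 (Fdft1). The 5 lowest genes outside the list were Adh7 (-0.668), Apobec2 (-0.668), Mtch2 (-0.663), Smim10l1 (-0.652) and Rab6a (-0.650). All of these kept their sign within each diet.

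The members' spread repeated where a gene had several probe sets. The array held 60 probe sets for the 27 members, and 17 members had more than 1. Of 33 pairs of the chosen probe set with another one, 24 passed (permutation test of rho, adjusted over the 33), all positive, with a median rho of 0.720. The median was 0.859 over 21 pairs whose other probe set was past the filter and 0.386 over 12 below it. For the highest probe sets past the filter, the median was 0.848 in 12 members, against 0.454 in 4726 other genes.

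**Figure D5:**
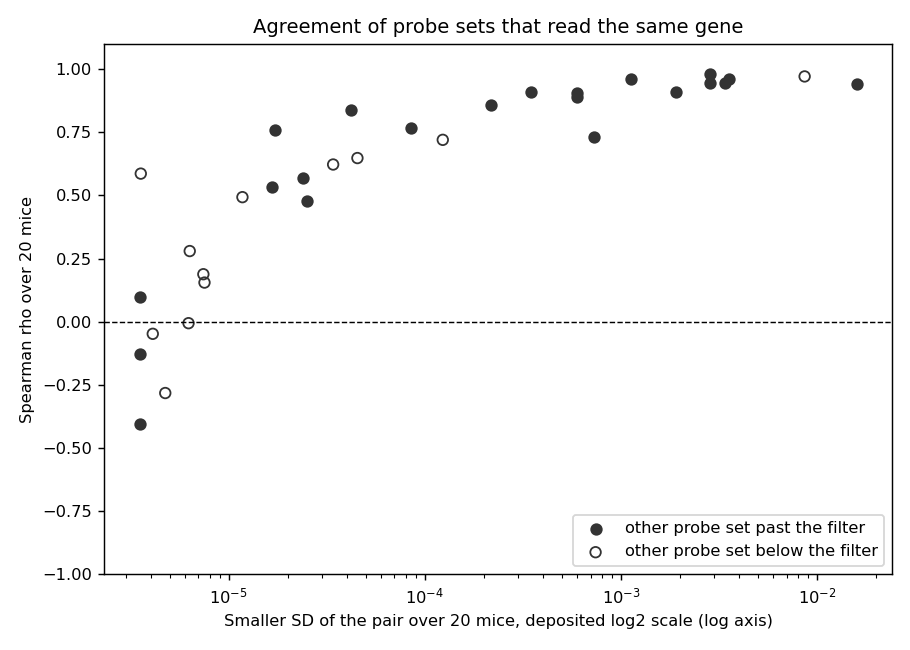
Spearman's rho over 20 mice between probe sets of the same gene (y axis) against the smaller SD of the pair (x axis, log scale), for 33 pairs in 17 members; filled points have the other probe set past the filter. Pairs with larger SD lie near the top, and the low filled points at the left are those of Ggps1.

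Members with a larger spread also followed more closely. Across the 27 members the SD and the median rho had a rank correlation of 0.742, a description over genes that share mice and arrays. Of the members, 25 had an SD above the median gene and 10 an SD above 0.001, a level that 2.86% of genes tested reached. Ggps1, with a median rho near 0, had an SD of 3.53e-06, whereas Insig2, with the lowest median rho, had an SD of 0.000595 and agreeing probe sets.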

How the data were processed

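The authors deposited 1 table of 45101 probe sets on 20 arrays, taken as log2 values (5.2 to 14.96). Per the labels' protocols, biotinylated RNA was made from 200 ng of total RNA with a 3′ kit, so mostly the ends of transcripts are read. How the authors corrected background, normalized arrays and summarised probes is not given in the sources used here. The table held 0 columns of other samples. Control probe sets (64) were left out, 34945 of the rest named 1 gene, 932 several and 9160 none, and each gene took its probe set with the highest mean.

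The members and lists were chosen with earlier results of these data known, and the positive shift between diets had been seen, so it is no independent support. The diet test was limma 3.58.1 (R 4.3.3), fitted over all 11728 genes (Benjamini-Hochberg). Correlations used scipy 1.17.1 and numpy 2.4.6 with 100000 permutations. All members were named, with the 3 highest and 3 lowest pairs, each list's 2 highest and 2 lowest genes, and the 10 most alike and 5 most opposite genes. The tests were checked on simulated data. The labels number biological replicates but do not say whether the mice shared cages.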

Additional observations from a re-analysis of the deposited data

Results flagged for a closer look

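In 3 of 54 sets, each the 10 mice of 1 diet for 1 gene, a single mouse lay far from the rest, where chance gives about 1 in 20, or 2.7. For Hmgcs1 in MSXH, replicate 3 was highest, with a gap to its neighbour of 0.5098 of the whole range. For Cyp51 in HFD, replicate 9 was lowest, with a gap of 0.5007. For Npc2 in HFD, replicate 9 was again lowest, with a gap of 0.5589.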

How the results depend on the processing

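The count of 0 members called between diets held under every alternative run. The number at an unadjusted p under 0.05, 3 in the main test, was 1 once every array had an equal median, 1 of 25 after quantile normalization, 6 with array weights, 1 with the replicate number as a replicate block, and 2 to 6 on leaving out each mouse (6 without MSXH replicate 10). With the replicate block 22 members were higher in MSXH with a median g of 0.406. The replicate numbers showed no clear pairing of the mice. Same-numbered mice correlated from -0.133 to 0.370, with a mean of 0.0530 against -0.00601 for other numbers. An array's best match shared its number in 2 of 20 cases. Such correlations cannot show whether same-numbered mice shared cages. On leaving out each mouse, 21 to 26 members were higher in MSXH and the median g ran from 0.339 to 0.635. The 138 correlated pairs became 49 of 300 after quantile normalization, 34 within HFD, 44 within MSXH (10 mice each), 49 when adjusted over the whole table, and 115 to 149 on leaving out each mouse. The median rho of 0.395 became 0.499 with equal medians, 0.212 after quantile normalization, 0.467 within HFD and 0.297 within MSXH, and ran from 0.347 to 0.425 on leaving out each mouse. With equal array medians 91.1% of all genes were higher in MSXH, so values under that scaling carry an offset common to each array: the array medians span 0.000176. Neighbouring probe set means near the median are 3.98e-05 apart, more than the median SD of 9.33e-06, so quantile normalization keeps little but exchanges of rank, and it left Ebp and Insig2 constant. A shift by each array's median deviation, chosen after seeing the data, changed the sign of g in 0 of 27 members. These shifts ran from only -6.82e-07 to 5.40e-07 and changed g by at most 0.0287. The count of 0 was thus nearly fixed in advance and is no check of the signs.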
